A study of Xenopus allofraseri with 8 samples.

Results

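Among the transcripts assembled from the hindlimb muscle of *Xenopus allofraseri*, 121 of 218541 (0.0554%) were 20000 bases long or longer. They were chosen by their length in the abundance tables, which list the same length for a transcript in every frog, so that no measured level entered the choice. Trinity, the assembler, names a transcript by a read cluster (TR), a component (c), a gene (g) and an isoform (i), and isoforms with the same name before that last number form 1 Trinity gene. By this rule the 121 giant transcripts lay in 45 of the 163981 Trinity genes. The 8 frogs were adult males of a single wild pond that were kept in captivity until their performance was tested. Frogs A, D, E and G were classed as endurant and frogs B, C, F and H as burst-performant by their locomotor performance (n = 4 each). PolyA RNA from knee extensor muscle, taken from the right leg, was sequenced as 1 ScriptSeq library per frog, and the assembly pooled the reads of all frogs. The category of a frog comes from measured performance and not from an experimental treatment.

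Striated muscle of vertebrates is known for giant proteins, among them titin, which spans from the Z-disc to the middle of the sarcomere, and nebulin, which runs along the thin filament. Their messages are among the longest known in vertebrates, and a de novo assembly can rebuild a long message only where reads cover it without a gap. The abundance tables give no gene names and no sequences were used here, so that none of the 45 Trinity genes is given a name or a role. For the same reason the labelled tissue could not be checked against muscle markers. Whether a giant transcript stands for 1 mature message of the frog was not tested.

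The shortest giant transcript had 20396 bases, the median giant 58768 bases and the longest 206156 bases. A total of 49 were shorter than 50000 bases, 51 had at least 50000 but under 100000 bases, and 21 from 7 Trinity genes had 100000 bases or more. The longest were TR29965|c1_g1_i1 (206156 bases), TR29965|c1_g1_i4 (206154 bases) and TR36421|c1_g1_i16 (164605 bases). Transcripts of 10000 bases or more that fell short of 20000 bases, hereafter long transcripts, were fewer than the giants, with 53 members in 32 Trinity genes. The longest transcripts of the 45 genes summed to 2923871 bases.

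Level differed widely among the transcripts nearest to the threshold of 20000 bases. Just above it lay TR13582|c2_g1_i2 (20396 bases, 104 estimated counts over the 8 frogs) and TR72309|c0_g1_i6 (20559 bases, 103 counts, all but a trace of them in frog D). Just below it lay TR83522|c0_g1_i1 (19161 bases, 175 counts), a shorter isoform of a giant gene, and TR8834|c1_g1_i1 (19830 bases). The last of these had a level far above that of any giant gene, with a mean of 315 TPM (transcripts per 1000000, a level corrected for length) and 0.788% to 1.21% of all counts of a frog.

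Of the 45 Trinity genes, 16 held 1 giant transcript and 29 held 2 to 9, which together made up 105 of the 121. In 12 genes every isoform was a giant, and the other genes added 124 shorter isoforms. The giants nevertheless carried most of the estimated counts, a unit that is not corrected for length and so favours longer isoforms. They held 91.8% of the estimated counts of their 45 genes and at least 95% in 37 of them. The exceptions included TR65430|c1_g2, whose 3 giants held 3.40% of the counts of a gene with 17 isoforms, TR8834|c1_g2 with 44.3% and TR72309|c0_g1 with 61.3%.

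Many giants had nearly the same length as another giant of their gene. Their sequences were not compared. Among the 188 pairs of giant isoforms of the same gene, 26 had exactly the same length, 61 differed by at most 10 bases, and 68 differed by at most 1%. In all, 68 of the 121 giants had such a partner within 1% of their length. In contrast, 54 pairs differed by more than 10%, up to 52613 bases. Kallisto, the program that made the estimates, counts read pairs and shares each pair among all transcripts it matches. Counts of isoforms with shared sequence are therefore estimates of a split, while the total of a gene does not rest on the split among its own isoforms. A pair that also matched another Trinity gene would be shared between the genes, and how often this occurred was not tested.

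Estimated counts summed to between 4449192 in frog H and 17359253 in frog E, a range of 3.90 times. In frogs C (9120121 counts) and D (4715751 counts) they were a much smaller part of the read pairs listed by the study than in the other frogs. The part of this in their shares was not tested. Giant transcripts held 577894 of the 79538420 counts, or 0.727%. In endurant individuals the share of counts was 0.583% in frog A, 0.359% in frog D, 1.09% in frog E and 0.373% in frog G. In burst-performant individuals it was 0.609% in frog B, 0.633% in frog C, 0.658% in frog F and 1.47% in frog H. Frogs H and E thus had the highest shares, 1 in each category, and frogs D and G the lowest. The share of frog H was 4.11 times that of frog D. Counting error was small beside these differences, with 95% Wilson intervals of 0.353% to 0.364% in frog D and 1.46% to 1.48% in frog H. No molecular identifiers mark the read pairs as separate molecules, so these intervals cover counting error only.

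**Figure D1:**
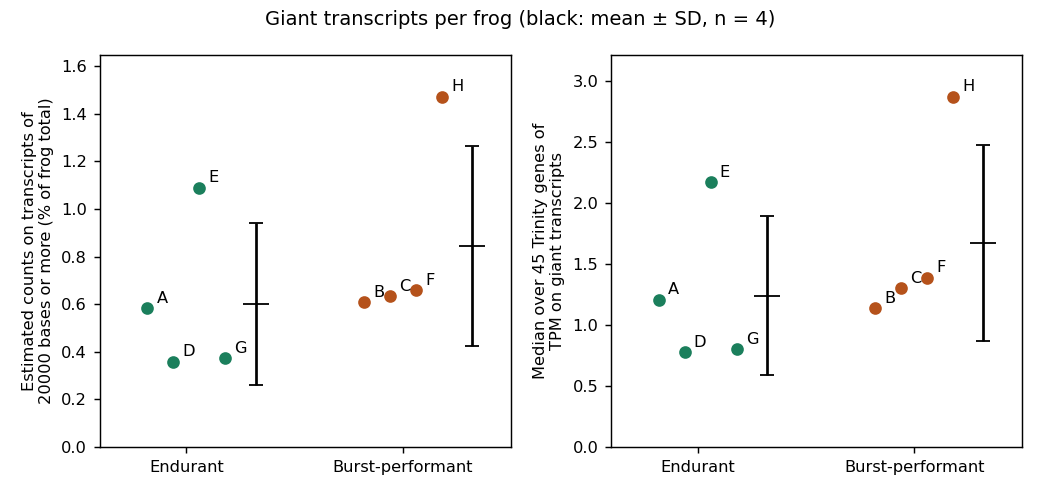
The left panel plots the percent of estimated counts on transcripts of 20000 bases or more in each frog, and the right panel the median TPM over the 45 Trinity genes. Points are frogs, and black bars give the mean and SD of each category (n = 4). Frog H (1.47%) lies far above the other burst-performant frogs, and frog E (1.09%) above the other endurant frogs.

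The mean share was 0.601% ± 0.341 in endurant individuals and 0.843% ± 0.420 in burst-performant individuals (SD, n = 4), a difference smaller than either SD. An exact permutation test of the difference in means over all 70 assignments (2-sided) gave p = 0.429. With 4 frogs per category this test cannot give a p below 0.0286. Without frogs E and H, a choice made after their shares were seen, the remaining endurant frogs (0.359% to 0.583%) lay below the remaining burst-performant frogs (0.609% to 0.658%). The exact permutation test of 3 with 3 gave p = 0.10, the smallest value it allows. Per molecule the giants were rare, at 0.00632% ± 0.00323 of TPM in endurant and 0.00904% ± 0.00465 in burst-performant individuals (SD, n = 4, exact permutation test, p = 0.429).

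Set against the long transcripts, the class next in length, giant transcripts had 0.303 to 1.42 times as many counts per frog. The log2 of this ratio was -0.95 ± 0.83 in endurant and -0.56 ± 0.73 in burst-performant individuals (SD, n = 4), again a difference smaller than either SD. The exact permutation test gave p = 0.514. TR8834|c1_g1_i1 held 86.9% of the counts of the shorter class. Once it was left out, the other 52 transcripts of that class held only 0.122% to 0.203% of counts, and giants had 2.66 to 7.26 times as many (exact permutation test, p = 0.571).

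The number of giants with at least 1 estimated count ran from 91 in frog B to 108 in frog E, which had the most counts in all, and it was 96 in frog H, which had the fewest. It was 100 ± 5.89 in endurant and 98.5 ± 6.45 in burst-performant individuals (SD, n = 4, exact permutation test, p = 0.771). Counts were found in all 8 frogs for 68 giants and in 1 to 7 frogs for 50, while 3 giants never reached 1 count. At the level of Trinity genes, 43 of 45 had giant counts in every frog. The exceptions were TR84459|c3_g2 and TR65430|c1_g2.

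Counts were spread over many genes and followed their length. The 10 genes with the most giant counts held 49.2% of them, and the first, TR29965|c1_g1, held 6.37%. Across the 45 genes, the number of giant counts rose with the length of the longest transcript (Spearman's rho 0.75), whereas TPM did not (rho 0.06). These values describe genes of the same libraries, which are not independent replicates. Taking 100 bases for each read of a pair, the pooled reads covered the longest transcript of a gene 34.7 times at the median, with a range of 2.27 to 98.8 times. Effective lengths, which correct for the size of sequenced fragments, were at most 0.960% shorter than the lengths of giants, so that this correction scarcely moved their TPM.

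Summed over giant isoforms and averaged over frogs, the level per length had a median of 1.39 TPM (quartiles 1.13 and 1.98) over the 45 genes. It ran from 0.123 TPM in TR65430|c1_g2 to 5.11 TPM in TR35522|c0_g1. In 34 genes (75.6%) it lay within a factor of 2 of the median. The same held for 68.4% of the 19 other Trinity genes with a long transcript and for 47.3% of all 35656 genes tested, each around its own median. The median of the giant genes ranked at the 25.8 percentile of the tested genes, whose median was 2.70 TPM.

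**Figure D2:**
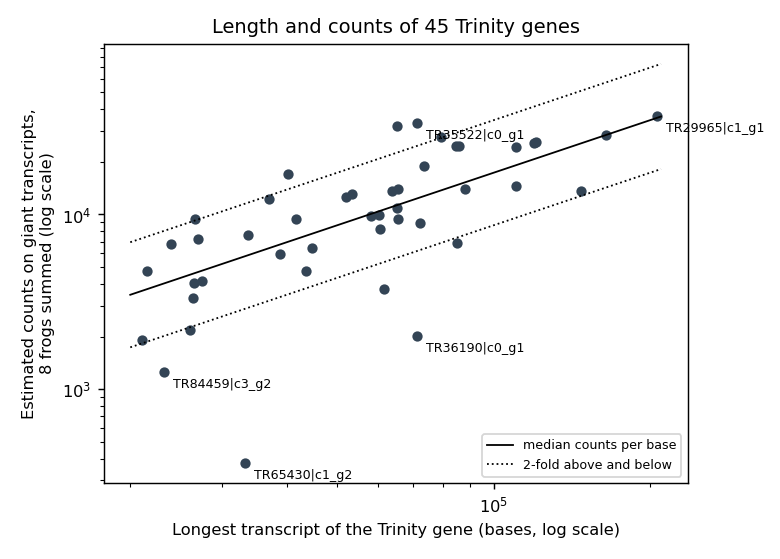
Estimated counts on giant transcripts, summed over 8 frogs, are plotted against the longest transcript of each of the 45 Trinity genes, both on log scales. Most genes lie between the dotted lines, a factor of 2 above and below the median of counts per base, and TR65430|c1_g2 and TR36190|c0_g1 lie far below.

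The giant genes rose and fell together from frog to frog. To compare frogs, counts were scaled with TMM in edgeR to CPM (counts per 1000000), a unit that does not correct for length. TR29965|c1_g1, the gene with the most giant counts, was at 361 CPM in frog A, 181 CPM in D, 640 CPM in E and 175 CPM in G, all endurant, and at 406 CPM in B, 476 CPM in C, 380 CPM in F and 1268 CPM in H, all burst-performant. TR35522|c0_g1 was at 318, 220, 598 and 164 CPM in the endurant frogs and at 369, 451, 308 and 1147 CPM in the burst-performant frogs, in the same order. Both genes were thus highest in frog H, second in frog E and lowest in frog G, and the categories overlapped in both, through frog E and, in TR35522|c0_g1, also through frog A.

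The other 4 of the 6 leading genes repeated this order at its ends. TR83522|c0_g1 was at 158 CPM in frog G, 645 CPM in frog E and 1139 CPM in frog H. TR36421|c1_g1, with the smallest spread of the 6, was at 167, 576 and 646 CPM in the same frogs. TR17983|c1_g1 was at 128, 563 and 878 CPM, and TR21529|c0_g1 at 133, 473 and 866 CPM.

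In terms of total level per Trinity gene, frog H was highest in 40 of the 45 genes, against 17% of all genes tested. Frog H was highest and frog E second in 32 of the 45, against 4.63% of all genes tested, and frog D or G was lowest in 36, against 22.4%. At the median, the level in frog H was 3.49 times the median of the other frogs over the 44 giant genes with at least 3 counts in every frog, while over the 20804 such genes among all tested it was 1.02 times. The highest frog exceeded the lowest by a median of 7.16 times in the giant genes and 3.08 times in all such genes. Scaled by library size only, frog H was highest in 35 of the giant genes and in 8.43% of all genes tested. Since the 45 genes moved together, they do not amount to 45 separate measurements of a frog. Frog H had the fewest estimated counts in all and frog E the most. The part of depth in their levels was not tested.

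**Figure D3:**
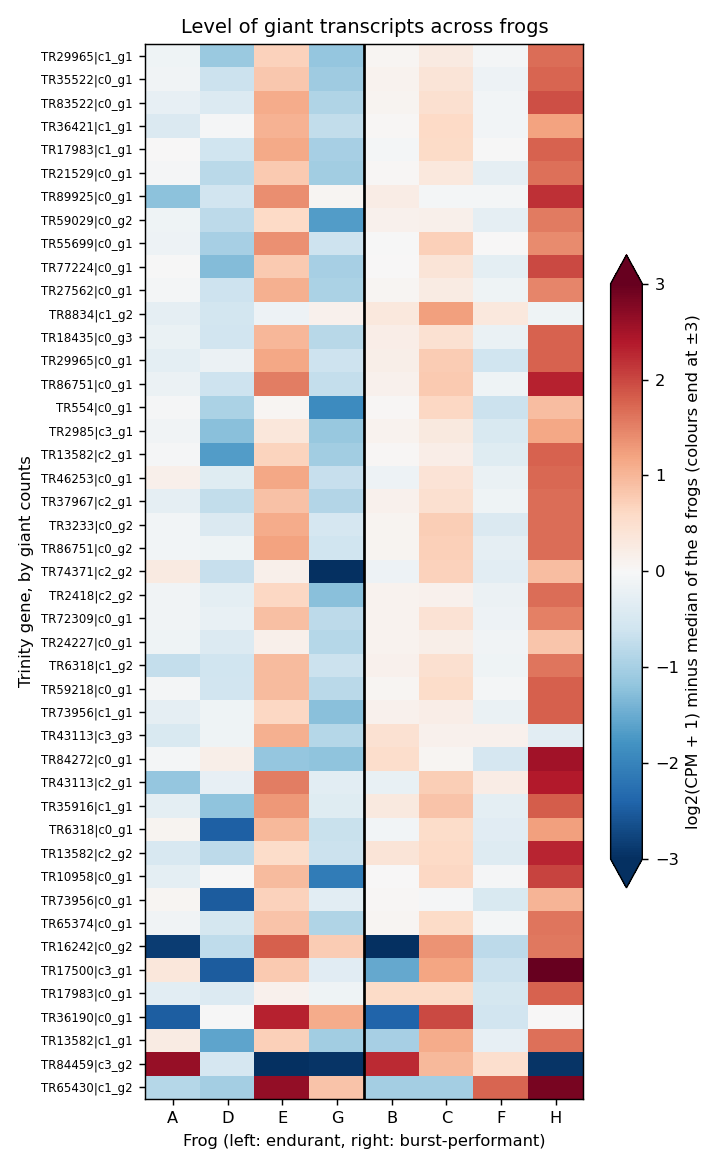
Rows are the 45 Trinity genes by falling giant counts and columns the 8 frogs, with colours for log2(CPM + 1) minus the median of the 8 frogs, ending at 3 on either side. The column of frog H is red in nearly every row, those of frogs D and G are mostly blue, and a few rows near the bottom break the pattern.

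A few genes went their own way and are named here after their values were seen. TR84459|c3_g2 (23209 bases, 1 giant) was at 49.7 CPM in frog A, 38.4 CPM in frog B, 15.3 CPM in frog C, 10.8 CPM in frog F and 4.87 CPM in frog D, and at 0.0138 CPM in frog E, 0.0785 CPM in frog G and 0.0940 CPM in frog H. Frogs H and E, which ranked highest and second in most giant genes, thus had almost none of it. Frogs with and without it were found in both categories. TR16242|c0_g2 and TR36190|c0_g1 were both low in frogs A and B. They were at 105 and 63.3 CPM in frog E and at 78.0 and 49.7 CPM in frog C, but at only 3.27 and 1.31 CPM in frog A and 1.57 and 1.44 CPM in frog B. They parted in frog H, with 91.5 CPM for the former, second after frog E, and 12.1 CPM for the latter. TR8834|c1_g2, from the read cluster that also holds the abundant TR8834|c1_g1_i1, was highest in frog C at 416 CPM and had 161 CPM in frog H, inside the range of the other frogs. TR43113|c3_g3 was highest in frog E (151 CPM) and had 57.3 CPM in frog H.

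The comparison of endurant and burst-performant individuals asked whether giant transcripts took part in the difference between the performance categories. Gene totals, shorter isoforms included, were compared by the quasi-likelihood test of edgeR on all 35656 Trinity genes that exceeded a CPM of 1 in 2 or more frogs. A call needed a Benjamini-Hochberg FDR of at most 0.05 together with a log2 fold change beyond 2 in either direction. All 45 giant genes entered the test. It called 0 of them, as it called 0% of all genes tested, and their adjusted p was 1.0 in each case. An unadjusted p under 0.05 was found for 3 of the 45 (6.67%), against 4.43% of all genes tested. In 0 of the 45 did the categories fail to overlap, against 3% of all genes tested. edgeR's exact test and DESeq2's Wald test also called 0 of the 45 giant genes. Among all 35656 genes tested, the exact test called 45 and the Wald test 33.

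The fitted level was lower in endurant individuals for 43 of the 45 genes, against 49.5% of all genes tested, with a median log2 fold change of -0.74 against 0.01 over all genes tested. Without frog H the count fell to 37 of 45 and the median to -0.15, against a median of 0.01 over all genes tested. Without frog E it was 44 of 45 with a median of -1.21, against -0.001 over all genes tested. In edgeR's quasi-likelihood test 28 of the 45 rather than 3 then had an unadjusted p under 0.05. Over all genes this held for 1744 of the 34423 tested without frog E. The size of the common difference thus depended on frogs H and E.

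The 6 leading genes had log2 fold changes between -0.92 (standard error 0.53) in TR29965|c1_g1 and -0.40 (standard error 0.44) in TR36421|c1_g1, with unadjusted p between 0.110 and 0.386 in edgeR's quasi-likelihood test. In CPM on giant transcripts, TR29965|c1_g1 was at 339 ± 218 in endurant and 633 ± 426 in burst-performant individuals (SD, n = 4). The largest difference among the 45 was in TR17500|c3_g1, with a log2 fold change of -1.71 (standard error 0.998). Its level was 280 CPM in frog H and 4.23 to 66.4 CPM in the others. The 3 genes with an unadjusted p under 0.05 in edgeR's quasi-likelihood test were TR84272|c0_g1, TR13582|c2_g2 and TR17983|c0_g1, with log2 fold changes of -1.43, -1.33 and -1.01. In each of them frog H was the highest. Without frog H 0 of the 45 genes had an unadjusted p under 0.05, against 1487 of all 34648 genes tested. This was not particular to frog H. The number was also 0 without frog A, against 1485 of 33968 genes tested, and 0 without frog G, against 1537 of 33811. Without frog D it was 1, against 1276 of 34267 genes tested. Leaving out frog B, C or F gave 4, 3 and 4, against 1564 of 34690, 1593 of 35178 and 1387 of 33659.

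**Figure D4:**
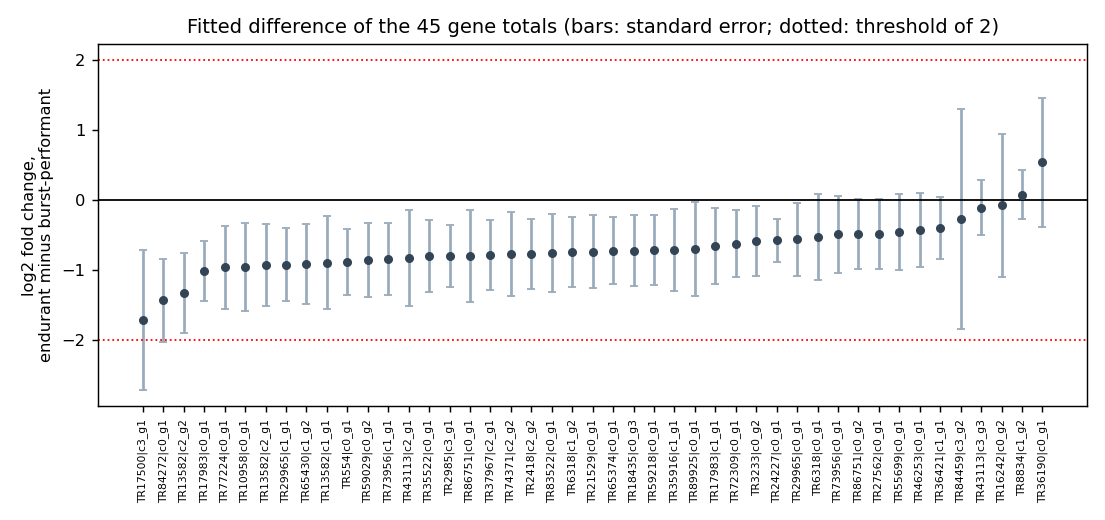
Points are the fitted log2 fold changes of the 45 gene totals, endurant minus burst-performant, with standard errors as bars and the threshold of 2 as dotted lines. All points lie inside the threshold, from -1.71 to 0.54, and 43 of 45 lie below 0.

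Of the 121 giant transcripts, 114 passed the filter and were among the 55631 transcripts tested singly. The other 7 did not exceed a CPM of 1 in 2 or more frogs. TR72309|c0_g1_i6, for example, had next to no count outside frog D, and TR36421|c1_g1_i17, although 151132 bases long, had 70.7 of its 79.4 counts in frog C. The same test called 0 of the 114 and 0% of all transcripts tested. An unadjusted p under 0.05 was found for 10 giants (8.77%), 6 higher in endurant and 4 higher in burst-performant individuals, against 3.67% of all transcripts tested. This split turned without frog E, when 2 of 22 such giants were higher in endurant and 20 in burst-performant individuals. Those 22 were among 109 giants tested without frog E, against 2068 of all 53247 transcripts tested. The categories did not overlap in 2 of the 114, against 2.93% of all transcripts tested. The fitted level was lower in endurant individuals for 87 of the 114, against 49.4% of all transcripts tested. edgeR's exact test called 0 of the 114 giants and DESeq2's Wald test called 1. Among all 55631 transcripts tested, the exact test called 109 and the Wald test 153. No giant combined 5 or more counts in all frogs of a category with less than 0.5 in all of the opposite one.

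The transcript of lowest p was TR17500|c3_g1_i2 (26418 bases). Among the endurant frogs it had 168 counts in A, 19.1 in D, 303 in E and 255 in G. Among the burst-performant frogs it had 4.6 in B, 1.1 in C, 27.7 in F and 12.4 in H. In CPM the categories did not overlap, with 4.09 to 22.7 in endurant and 0.148 to 3.38 in burst-performant individuals. Its log2 fold change was 3.61 (standard error 0.95), and edgeR's quasi-likelihood test gave an unadjusted p of 0.00441 and an adjusted one of 1.0. DESeq2's Wald test gave an adjusted p of 0.0380. The other giant of that gene, TR17500|c3_g1_i1 (26375 bases), had 985 counts in frog H and 470.0 in frog C, but 0.2 in frog D and 0 in frog G. The fitted difference of the gene total, -1.71, had the opposite sign. A difference in isoform share was not tested.

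The next giants in this direction were at or near 0 in most frogs. TR6318|c0_g1_i1 (37056 bases) had 119 counts in frog A, 206 in E and 17.9 in G but 0 in the endurant frog D, and among burst-performant frogs it had 2.3 in H and 0 in B, C and F. TR46253|c0_g1_i7 (51970 bases) had 262 and 151 counts in frogs E and G and at most 2.1 in any other frog. Endurant frogs without the transcript thus stood beside endurant frogs with it. Unadjusted p in edgeR's quasi-likelihood test was 0.00878 and 0.0138.

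Of the giants higher in burst-performant individuals, TR59029|c0_g2_i1 (84573 bases) had 53.7, 137, 217 and 12.9 counts in frogs B, C, F and H and 0.1, 0.4, 40.4 and 12.4 in frogs A, D, E and G. Its log2 fold change was -3.44 (standard error 1.23), for which edgeR's quasi-likelihood test gave an unadjusted p of 0.0217. The categories did not overlap in CPM. TR2985|c3_g1_i5 (147149 bases) had 1699 counts in frog B, 540 in C, 199 in F and 903 in H, against 166 in A, 154 in D, 642 in E and 156 in G, a log2 fold change of -2.14 (standard error 0.77) with an unadjusted p of 0.0223 in the same test. Frog F, at 12.3 CPM, was lower than every endurant frog. TR17983|c0_g1_i3 (23749 bases) had 103 and 95.7 counts in frogs B and C, 0 in frogs F and H, and at most 3.2 in an endurant frog.

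How the counts of a gene were split among its giants differed widely between genes. Over the 29 genes with 2 or more giants, the share of the leading giant spanned a median of 37.3 percentage points between frogs with at least 20 giant counts. It spanned less than 15 points in 6 genes and more than 50 points in 9. In 18 of these genes the same giant led in every frog, and in 11 the leader changed.

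TR35522|c0_g1 was an example of a steady split. Its giants TR35522|c0_g1_i1 and TR35522|c0_g1_i4 differ in length, at 71368 and 26503 bases, and the longer held between 79.0% and 81.8% of the giant counts in every frog. In TR29965|c1_g1, whose giants differ by only 2 bases, TR29965|c1_g1_i4 held 7.90% to 37.4% of giant counts in endurant and 13.8% to 43.1% in burst-performant individuals. The categories overlapped. In TR21529|c0_g1, with giants of 120639 and 120638 bases, the shorter held 2.07% in frog A and 37.1% in frog E.

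TR36421|c1_g1_i16 led its gene in all frogs, with 51.8% of giant counts in frog A and 98.2% in frog D. In TR83522|c0_g1, TR83522|c0_g1_i3 and TR83522|c0_g1_i4 (61679 and 61836 bases) shared the lead, at 48.5% and 46.4% of the giant counts. TR17983|c1_g1_i4 held 83.3% to 97.3%, and 3 giants of 79157 bases each shared the rest.

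The genes with the most giants were TR2985|c3_g1 with 9, TR59029|c0_g2 with 8 and TR46253|c0_g1 with 7. The 9 giants of TR2985|c3_g1 were 142981 to 147149 bases long, and 5 of them led in at least 1 frog. TR2985|c3_g1_i5 held 69.3% of giant counts in frog B and 66.5% in frog H, but 9.69% in frog F and 12.5% in frog A. TR2985|c3_g1_i14 led in frog G with 37.5% and held 0.431% in frog B. In TR59029|c0_g2, TR59029|c0_g2_i4 held 64.9% in frog A and 21.8% in frog D, where TR59029|c0_g2_i7 led with 38.5%. TR46253|c0_g1 was steadier, and TR46253|c0_g1_i3 held 74.9% in frog E and 99.98% in frog B. The part of read pairs that could be assigned to 1 isoform of these genes is not known, and the split in a frog carries an error that the tables do not give.

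**Figure D5:**
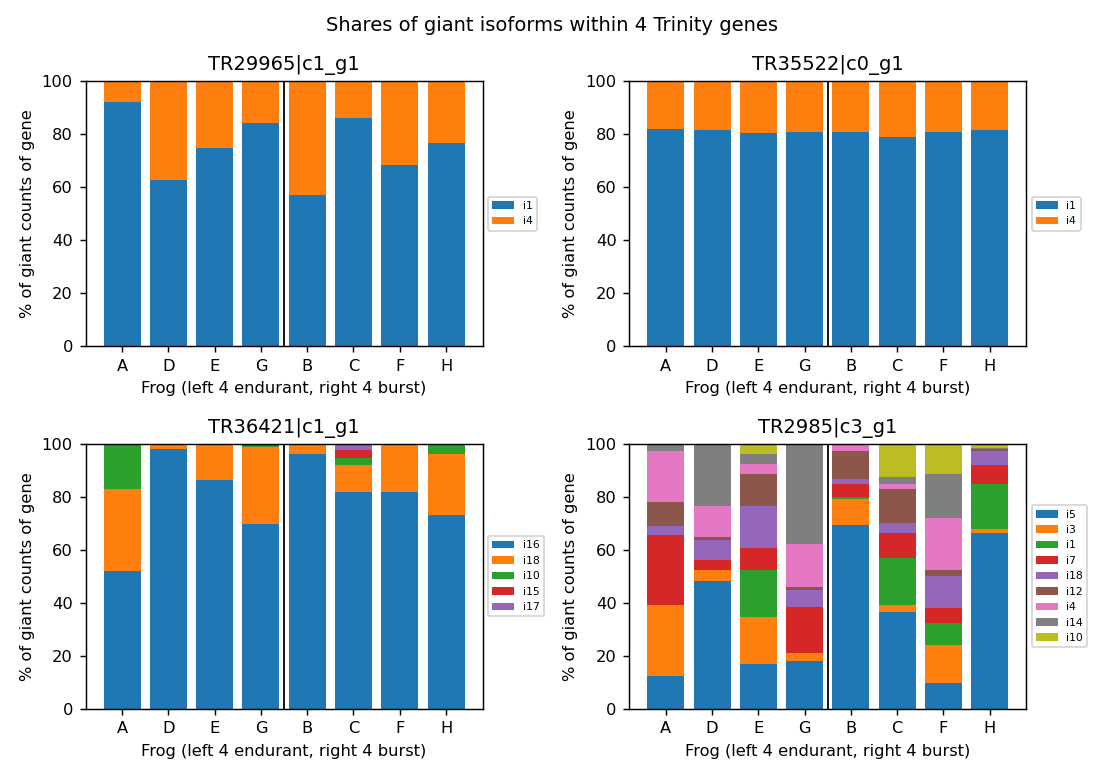
Stacked bars give the percent of giant counts that each giant isoform held in each frog, for 4 Trinity genes. The bars of TR35522|c0_g1 are nearly alike in all frogs (79.0% to 81.8% for the longer giant), while those of TR2985|c3_g1 change their leading isoform from frog to frog.

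The share of counts on giant transcripts was also set against the performance of each frog as the study lists it, over 8 frogs and 3 relations. With maximum velocity Pearson's r was -0.07 (exact permutation p = 0.874, 0.874 adjusted over the 3 relations) and Spearman's rho 0.35 (exact permutation p = 0.397, adjusted 0.595). With acceleration r was -0.11 (exact permutation p = 0.802, adjusted 0.874) and rho 0.14 (p = 0.752, adjusted 0.752). With time to exhaustion r was -0.14 (exact permutation p = 0.731, adjusted 0.874) and rho -0.36 (p = 0.389, adjusted 0.595). Without the 2 frogs farthest from the median of the trait, r was -0.32, 0.14 and -0.50 for the same traits (exact permutation p = 0.554, 0.789 and 0.274). For velocity, frogs F and C were equally far from the median, and r was -0.30 with C left out in place of F (exact permutation p = 0.572). None of these relations passed the threshold. Time to exhaustion did not overlap between the categories either, although their values adjoin, so its r cannot be told apart from the category. Distance jumped falls into ranges that lie apart, and no r was computed for it.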

How the data were processed

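The authors trimmed paired-end reads with Trimmomatic, assembled the reads of all 8 frogs with Trinity and estimated abundances with Kallisto. Their versions were not stated in what was read here. The estimated counts were made by the authors with Kallisto and deposited as read pairs per transcript, with no correction for length or depth. The deposited TPM values are corrected for effective length and sum to 1000000 per frog. Depth ran from 4449192 to 17359253 counts, with 1 library from each frog. The study ran edgeR on TPM, whereas a count model was fitted here to the counts. The study reported 109 differing transcripts at the same thresholds, where the quasi-likelihood test used here called 0 of 55631. edgeR's exact test on the counts called 109 transcripts, so the number of calls depended on the test. Whether these are the transcripts of the study was not tested.

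Counts were rounded and fitted over all features with edgeR 4.0.16 in R 4.3.3 (TMM, estimateDisp, glmQLFit, glmQLFTest), after a filter of CPM above 1 in at least 2 frogs, once per transcript and once per Trinity gene. Calls needed a Benjamini-Hochberg FDR of at most 0.05 over all features and a log2 fold change of 2 in either direction. A positive value means a higher level in endurant frogs. Standard errors are the absolute log2 fold change over the square root of F. Single values per frog were compared with exact permutation tests (Python 3.11.15, numpy 2.4.6, scipy 1.17.1, pandas 2.3.3). The alternatives were edgeR's exact test, DESeq2 1.42.0, other scalings, filters and length thresholds, and each frog left out. For transcripts only, limma 3.58.1 on log2(TPM + 1) and log2(TPM + 0.1) was added. The edgeR and DESeq2 fits were run on simulated counts with large changes and the same dispersion (spread between frogs) for every feature. That check of the code does not measure what the tests could find in these data.

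Members named singly are the 6 genes with the most giant counts and their giants with at least 10% of these, the 3 longest transcripts, the 3 genes with the most giants, the 3 giants of lowest p in each direction, and the 2 transcripts on either side of 20000 bases. Other members named as exceptions or examples were chosen after their values were seen. The members and this rule were chosen with earlier results of these data known. Trait values come from the study and are not printed.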

Additional observations from a re-analysis of the deposited data

Results flagged for a closer look

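Values of 1 frog far from the other 3 of its category were looked for in 32 sets of 4 frogs with Dixon's test. If values are normally distributed, chance alone picks about 1 set in 20 by this test. Whether they are was not tested. Such values were found in 7 sets, all in frog H. They are not independent, since the giant genes moved together. The share of counts in frog H was 1.47%, against 0.609% to 0.658% in the other burst-performant frogs, and the share of TPM was 0.0160%, against 0.00615% to 0.00715%. Among the leading genes, TR29965|c1_g1 was at 1268 CPM in frog H (380 to 476 CPM in the others), TR35522|c0_g1 at 1147 CPM (308 to 451 CPM) and TR83522|c0_g1 at 1139 CPM (280 to 417 CPM). TR6318|c0_g1_i1 was at 0.624 CPM and TR46253|c0_g1_i7 at 0.444 CPM in frog H. For these transcripts, both at or near 0 in the other burst-performant frogs, the distance rests on 2.3 and 1.6 counts. Both had been named for their low p in the comparison of categories.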

How the results depend on the processing

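No call of a giant transcript or giant gene was gained under other scalings, filters, a robust fit, edgeR's exact test or leaving out any frog. Limma, run on transcripts only, called no giant among its 5 calls of 55631 with either offset. Other scalings, the robust fit and the stricter filters called 0 of all features tested. Without a filter on low counts 13 of 211305 transcripts and 730 of 159077 genes were called. Leaving out a frog gave 1 call in all, of 35178 genes without frog C. DESeq2's Wald test called 1 giant, TR17500|c3_g1_i2, among 153 calls over all 55631 transcripts tested. The differences in share of counts, share of TPM and the ratio to the next length class kept their direction and stayed short of the threshold under all alternatives, among them length thresholds of 15000 and 25000 bases. So did settings chosen after seeing the data, which were TMM-scaled CPM, the ratio without TR8834|c1_g1_i1, and the share without frogs E and H or without frogs C and D (exact permutation test, p = 0.50), whose counts were a smaller part of their reads. With 3 frogs per category, however, the test cannot give a p below 0.10, the value reached without frogs E and H. The length threshold of 15000 bases also takes in TR8834|c1_g1_i1 (19830 bases), which alone held 0.788% to 1.21% of the counts of a frog. That setting therefore does not describe the giants alone. Without a filter on low counts the lowest adjusted p of a giant gene was 0.0211 in edgeR's quasi-likelihood test, at a fold change short of 2 on the log2 scale. Leaving out each frog moved the difference in share from -0.405 to -0.0326 percentage points, the latter without frog H. The difference in the number of giants with a count, 1.5 as reported, changed sign with at least 5 counts (-0.75), with CPM above 1 (-1.25) and with 1 count per 1000000 (-0.75, chosen after seeing the data), and ran from -1.17 (without frog E) to 4 (without frog C) when each frog was left out. The relation with acceleration changed sign without the 2 frogs farthest from its median (r = 0.14). The cause was not tested. No paired analysis was possible because each frog has its own letter. Categories of 4 frogs limit every comparison, and the split among isoforms of a gene has an error the tables do not hold.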
